A study of Homo sapiens with 8 samples.

Results

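The genes described here are 34 members of the cholesterol and fatty acid synthesis pathways that respond to the sterol regulatory element binding proteins (SREBPs), chosen by name and matched to the Entrez gene numbers of the count tables. All 34 were found among the 25702 genes listed, and all 34 were among the 14333 genes with enough reads to be tested. They fall into 5 regulators of the pathway, 19 genes of the sterol arm and 10 genes of the fatty acid arm. SUIT2 cells, a human line of pancreatic ductal adenocarcinoma (PDA), were profiled by RNA-seq after transduction with a scramble shRNA (shScr, 4 libraries) or with 1 of 2 shRNA constructs against *EN1* (shEN1 #1 and shEN1 #2, 2 libraries each). *EN1* encodes a homeobox transcription factor, and the comparison asks which genes depend on it. All libraries come from 1 cell line grown in serum-containing medium, and the labels name neither a sterol or lipid treatment nor separate cultures, so the spread between libraries, on which every p-value rests, may be partly technical.

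SREBPs are made as membrane proteins of the endoplasmic reticulum, where SCAP binds them. When membrane cholesterol is low, SCAP carries them to the Golgi, where proteases release the part that enters the nucleus and switches on the genes of lipid synthesis. When cholesterol is high, INSIG1 and INSIG2 hold SCAP back. SREBP-2, from *SREBF2*, acts mainly on cholesterol synthesis and SREBP-1, from *SREBF1*, mainly on fatty acid synthesis, and *INSIG1* is itself one of the genes they switch on. Tumour cells of the pancreas are known to use both pathways to build membranes.

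The label of each library was first checked against the targeted gene. Levels are given as CPM, a gene's reads scaled to the normalized total of its library, and a value under a label is that of a library carrying the label. Under shScr, replicates 1 to 4, *EN1* had 4.10, 4.50, 4.94 and 2.51 CPM. It had 5.77 and 5.41 CPM under shEN1 #1, and 1.35 and 6.70 CPM under shEN1 #2. The ranges overlapped, 3 of the 4 libraries labelled shEN1 lay above every library labelled shScr, and the log2 fold change was 0.26 (standard error 0.43; p = 0.543, exact permutation test over 70 assignments, two-sided, on CPM). This value rested on single libraries: it was 0.57 without shEN1 #2 replicate 1, 0.057 without shEN1 #2 replicate 2 and 0.089 without shScr replicate 4. In the fit with 3 groups it was 0.48 for shEN1 #1 and 0.0008 for shEN1 #2 against shScr. Since *EN1* was not lower under shEN1 in any of these fits, each difference below is one between labels. Library totals lay between 33423590 and 37810604 counts. On the first principal component (44.4% of the variance), shScr replicate 4 and shEN1 #2 replicate 1 stood apart from the other 6, and results that rest on them are given with their values. Epithelial markers summed to 11800 to 16100 CPM under shScr and 11500 to 18800 CPM under shEN1. Of these markers, *KRT7* had 198 and 192 CPM in those 2 libraries against 533 to 1080 CPM in the other 6. *EPCAM*, *CDH1*, *KRT19*, *CLDN4* and *CLDN7* were also lowest in those 2 libraries. *KRT8* (6490 and 6370 CPM) and *KRT18* (4250 and 4220 CPM), the most abundant of the list, were not lowest there. Markers that define leukocytes (*PTPRC*, *CD3E*), endothelial cells (*CDH5*, *KDR*) and fibroblasts (*COL1A2*, *DCN*, *LUM*) had 0 counts in every library. The leukocyte list summed to between 8.56 and 35.7 CPM, nearly all of it *CD68*, and the endothelial, fibroblast, adipocyte and hepatocyte lists summed to at most 4.22 CPM. In bulk RNA, fewer cells expressing a gene and less RNA per cell cannot be told apart.

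The promoters of 4 members are shown because these genes were among those that varied most together between libraries (*INSIG1*, *STARD4* and *SCD*) or held a sterol regulatory element (*SREBF2*). Each line gives the 250 bases before the RefSeq transcription start on GRCh38.p14, 5′ to 3′ on the strand of the gene, with capitals for every match on either strand to the sterol regulatory element TCACNCCAC, the NF-Y box CCAAT, the GC box GGGCGG or the E-box CACGTG. The windows are SREBF2 at chr22:41832855-41833104 (plus strand), INSIG1 at chr7:155297628-155297877 (plus strand), STARD4 at chr5:111512536-111512785 (minus strand) and SCD at chr10:100346983-100347232 (plus strand).
SREBF2: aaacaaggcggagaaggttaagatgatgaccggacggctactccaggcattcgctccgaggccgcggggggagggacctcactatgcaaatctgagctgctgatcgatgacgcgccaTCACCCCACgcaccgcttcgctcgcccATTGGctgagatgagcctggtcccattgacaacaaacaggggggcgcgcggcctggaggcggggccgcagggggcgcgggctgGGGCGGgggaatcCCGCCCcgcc
INSIG1: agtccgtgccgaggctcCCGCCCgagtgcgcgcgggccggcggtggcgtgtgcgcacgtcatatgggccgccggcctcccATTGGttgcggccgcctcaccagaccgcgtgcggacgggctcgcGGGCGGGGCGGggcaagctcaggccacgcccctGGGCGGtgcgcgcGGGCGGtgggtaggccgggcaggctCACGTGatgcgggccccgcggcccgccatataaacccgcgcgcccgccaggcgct
STARD4: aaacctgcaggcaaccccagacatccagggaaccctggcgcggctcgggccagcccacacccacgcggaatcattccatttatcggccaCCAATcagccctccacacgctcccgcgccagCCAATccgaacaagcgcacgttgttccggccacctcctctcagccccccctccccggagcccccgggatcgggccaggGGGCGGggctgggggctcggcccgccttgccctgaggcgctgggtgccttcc
SCD: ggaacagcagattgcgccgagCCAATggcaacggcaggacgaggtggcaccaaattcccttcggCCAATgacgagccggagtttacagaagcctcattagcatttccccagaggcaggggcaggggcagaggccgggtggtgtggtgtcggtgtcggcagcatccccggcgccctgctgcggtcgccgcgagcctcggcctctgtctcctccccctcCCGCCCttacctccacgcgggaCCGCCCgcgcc

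These letters were then counted in all RefSeq promoters, each running from 250 bases before to 50 bases after the start. A promoter entry was found for 30 of the 34 members (41 promoters), and *ACAT2*, *FDFT1*, *SQLE* and *FASN* had no entry. The NF-Y box, bound by a factor known to act beside SREBPs, was in 27 of the 41 member promoters (65.9%), against 34.6% of all 35116 promoters and 34.6% of the promoters of tested genes. It was in 16 of 21 sterol arm promoters (76.2%), 9 of 14 fatty acid arm promoters (64.3%) and 2 of 6 regulator promoters (33.3%). *MVK* and *NSDHL* held the most, with 5 matches each. The GC box, a letter pattern bound by SP1, was in 87.8% of member promoters against 65.6% of those of tested genes, and the E-box in 14.6% against 9.30%. The sterol regulatory element in this strict spelling was in 1 member promoter, that of *SREBF2*, 133 bases before its start (2.44% against 1.13% of all promoters). The shares of all these motifs are given without matching for base composition, and no overlap between different motifs was removed.

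**Figure D1:**
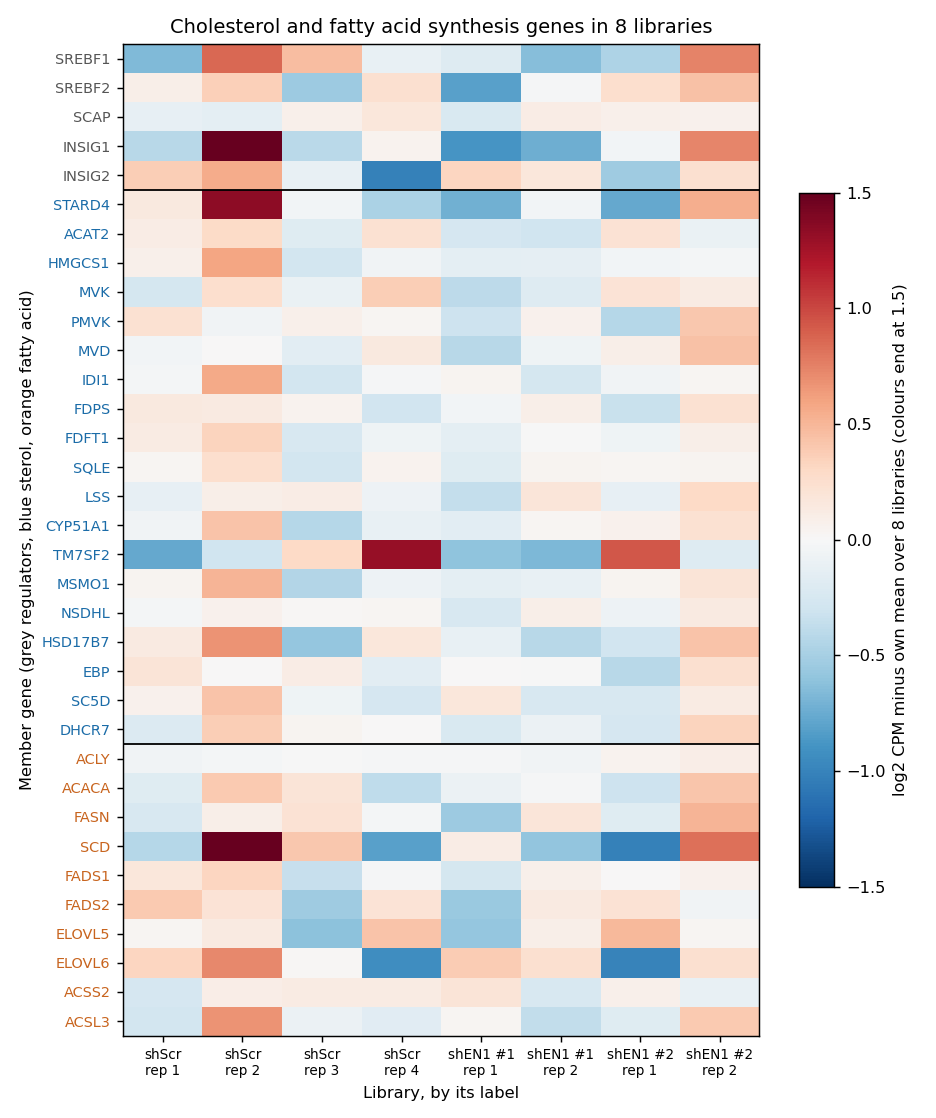
Each row is a member gene and each column a library; colour gives the log2 CPM minus that gene's mean over the 8 libraries, with colours ending at 1.5 in either direction. The library labelled shScr replicate 2 was above the members' own means in 30 of 34 genes and the library labelled shEN1 #2 replicate 2 in 29 of 34, while shEN1 #1 replicate 1 was above them in 8 of 34.

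Between labels, no member passed the test. In edgeR's quasi-likelihood test on 4 against 4 libraries, 0 members had a Benjamini-Hochberg adjusted p below 0.05 and 0 had an unadjusted p below 0.05. Over all 14333 tested genes these shares were 0% and 0.307%. DESeq2 and limma-voom also called 0 members, where DESeq2 called 0.0105% of 18999 genes. The CPM ranges of the labels overlapped for every member, whereas 0.419% of all tested genes had ranges that did not overlap. A share of 0 among 34 genes is therefore close to the background. That background is itself low, since without any difference a share near 0.05 would have an unadjusted p below 0.05. The test was thus cautious here, and 0 members says little about small differences. Without shScr replicates 3 and 4 and replicate 1 of each construct, edgeR gave 1512 of 14273 genes an unadjusted p below 0.05. In that fit of 4 libraries, 1 gene and 0 members had an adjusted p below 0.05. The smallest unadjusted p among members was 0.204, for *ACAT2*.

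By count, 8 members had a higher and 26 a lower fitted level in the libraries labelled shEN1, with a median log2 fold change of -0.080 against -0.0028 for all tested genes. The sterol arm had 3 higher and 16 lower (median -0.096), the fatty acid arm 3 higher and 7 lower (median -0.059), and the regulators 2 higher and 3 lower (median -0.043). These counts moved in both directions when a single library was left out. Without the library labelled shScr replicate 2, 10 sterol genes were higher and 9 lower (median 0.013), 8 fatty acid genes were higher and 2 lower (median 0.050), and 15 of the 34 members changed sign. Without the library labelled shEN1 #2 replicate 2, 0 sterol genes were higher and 19 lower, 2 fatty acid genes were higher and 8 lower, and 6 members changed sign. Without the pair of libraries that stood apart, 3 sterol genes were higher and 16 lower, and 2 fatty acid genes were higher and 8 lower. The widest fitted differences were those of *INSIG1* (log2 fold change -0.62, standard error 0.55), *STARD4* (-0.56, standard error 0.43) and *SCD* (-0.45, standard error 0.54). Without shScr replicate 2 they were 0.16, -0.040 and 0.19, and without shEN1 #2 replicate 2 they were -1.04, -0.88 and -0.88. At the other end, *ACLY* had the smallest standard error (log2 fold change 0.046, standard error 0.092).

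**Figure D2:**
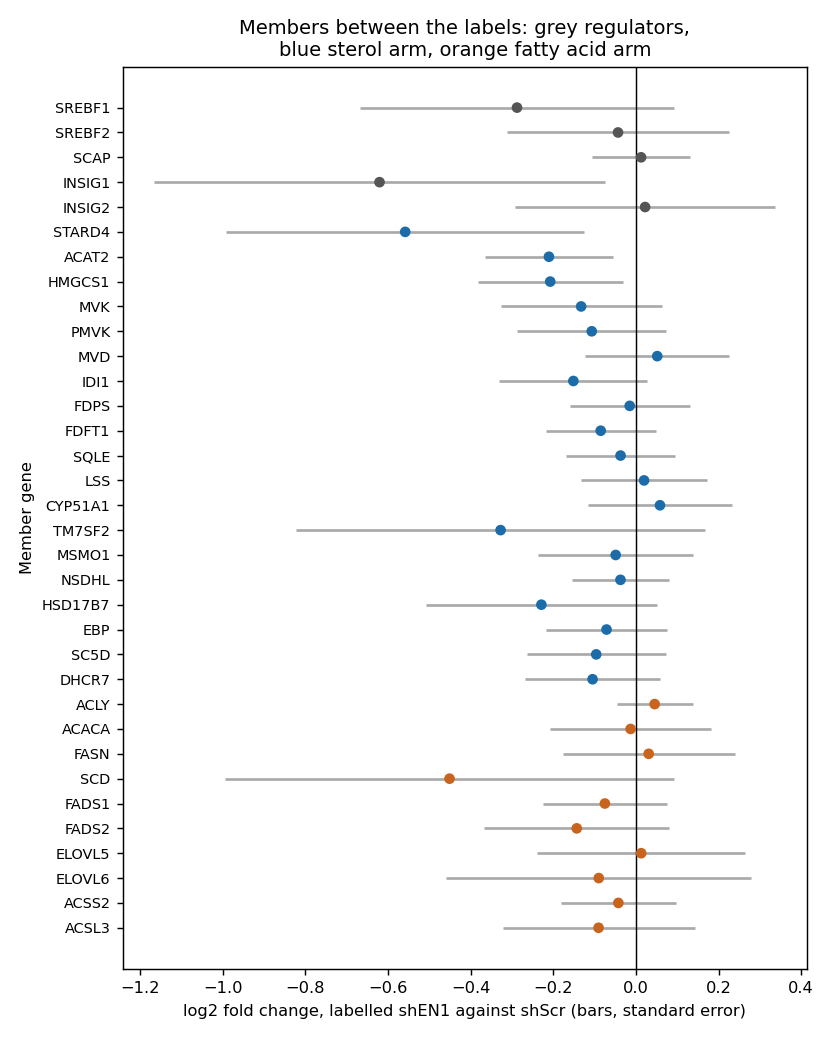
Points give the log2 fold change of each member between the libraries labelled shEN1 and shScr (horizontal axis), bars its standard error from edgeR, and colour the group of genes. Of the 34 points, 26 lie left of 0, the lowest being INSIG1 at -0.62, and 0 passed the test.

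The constructs were next compared one at a time in a fit with 3 groups over 15129 genes. All comparisons with shScr share the same 4 libraries. These include shScr replicate 2, above the members' own means in 30 of 34 genes. For shEN1 #1 against shScr, 3 members were higher and 31 lower, with a median log2 fold change of -0.18. Over all tested genes 7251 were higher and 7878 lower (median -0.0091). For shEN1 #2 against shScr, 17 members were higher and 17 lower, with a median of -0.0071 (all tested genes, 7304 and 7825). Between the constructs, 28 members were higher under shEN1 #2 and 6 lower, with a median of 0.19 (all tested genes, 7645 and 7482). With edgeR, 0 members had an adjusted p below 0.05 in any of these 3 comparisons, as had 0% of all tested genes. At an unadjusted p below 0.05 from edgeR there were 0 members for either construct against shScr. Of all 15129 genes, 102 had such a p for shEN1 #1 and 59 for shEN1 #2, so 0 of 34 is close to the background. These counts, too, lie below a share of 0.05. Between the constructs there was 1 member. That 1 was *MVD*, which decarboxylates diphosphomevalonate, with 26.5 and 33.9 CPM under shEN1 #1 and 37.7 and 48.3 CPM under shEN1 #2 (log2 fold change 0.51, standard error 0.20, unadjusted p = 0.0327, adjusted p = 1.00 from edgeR), and 177 of all 15129 genes also had such a p.

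What varied was the library. Singled out after its values were seen, the library labelled shScr replicate 2 was the highest of the 8 in 18 of 34 members (52.9%), against 12.3% of all tested genes, and the lowest in 0. The library labelled shEN1 #2 replicate 2, on the other side of the label, was the highest in 10 members (29.4%, against 9.08%) and also the lowest in 0. They were the 2 highest libraries together in 11 members (32.4%), against 3.73% of all tested genes. Those 11 were the regulators *SREBF1*, *SREBF2* and *INSIG1*, the sterol genes *STARD4*, *CYP51A1*, *MSMO1*, *HSD17B7* and *DHCR7*, and the fatty acid genes *ACACA*, *SCD* and *ACSL3*. At the low end, shScr replicate 3 and shEN1 #1 replicate 1 were the 2 lowest in 10 members (29.4%, against 6.83%), among them *HMGCS1*, *FDFT1*, *SQLE*, *FADS1* and *FADS2*. The pair that stood apart over all genes, shScr replicate 4 and shEN1 #2 replicate 1, were the 2 lowest in 7 members (20.6%), close to 19.2% of all tested genes.

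Over the 34 members the most alike libraries carried different labels, as they did over all tested genes. The root mean square log2 difference was smallest between shScr replicate 4 and shEN1 #2 replicate 1 (0.195) and next smallest between shScr replicate 1 and shEN1 #1 replicate 2 (0.209). It was 0.370 between shScr replicate 2 and shEN1 #2 replicate 2. Over all tested genes these 3 distances were 0.395, 0.510 and 0.488, of which 0.395 and 0.488 were the smallest of all pairs. Libraries of the same construct were 0.387 apart for shEN1 #1 and 0.666 apart for shEN1 #2, and shScr replicates 2 and 4 were 0.848 apart.

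Among the regulators, *INSIG1*, whose product retains SCAP in the endoplasmic reticulum, had the widest ratio of the highest to the lowest library among all members. It had 13.1, 57.0, 13.2 and 18.1 CPM under shScr (replicates 1 to 4), 9.47 and 10.5 CPM under shEN1 #1, and 17 and 29.1 CPM under shEN1 #2. Replicate 2 of shScr was high, the other 3 shScr libraries lay within the range of shEN1, and the highest library was 6.02 times the lowest. Its biological coefficient of variation in edgeR was 0.526, which 1.47% of tested genes with a mean of 5 CPM or more exceeded. *INSIG1* lies at chr7:155089486-155101945 on GRCh37 (hg19), and its exons overlap no other annotated gene.

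*INSIG2*, its relative, followed another order. It had 49.7, 56.3, 35.5 and 19 CPM under shScr, 48.0 and 43.2 CPM under shEN1 #1, and 26.5 and 45.4 CPM under shEN1 #2. Its lowest values were in shScr replicate 4 and shEN1 #2 replicate 1, the libraries that stood apart, and the labels overlapped (log2 fold change 0.022, standard error 0.32).

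The genes of the SREBPs themselves were both among the 11 with the shared high libraries. *SREBF1* had 48.8, 141, 107 and 71.4 CPM under shScr, 67.7 and 49.6 CPM under shEN1 #1, and 56.1 and 129 CPM under shEN1 #2 (log2 fold change -0.29, standard error 0.38, and -0.0039 without shScr replicate 2). *SREBF2* had 70.5, 84.7, 45.5 and 78.3 CPM under shScr, 37.5 and 65.4 CPM under shEN1 #1, and 78.5 and 89.4 CPM under shEN1 #2 (log2 fold change -0.043, standard error 0.27). They differed in shScr replicate 3, which was among the 3 highest for *SREBF1* and among the 2 lowest for *SREBF2*. *SCAP*, the escort protein, was nearly level, with 90.4, 89.2, 104 and 111 CPM under shScr, 84.6 and 107 CPM under shEN1 #1, and 104 and 103 CPM under shEN1 #2. Its highest library was 1.31 times its lowest. The exons of *SREBF1* share 6.75% and those of *SREBF2* share 9.08% of their bases with genes on the other strand, and the strand setting of the counting is not stated.

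**Figure D3:**
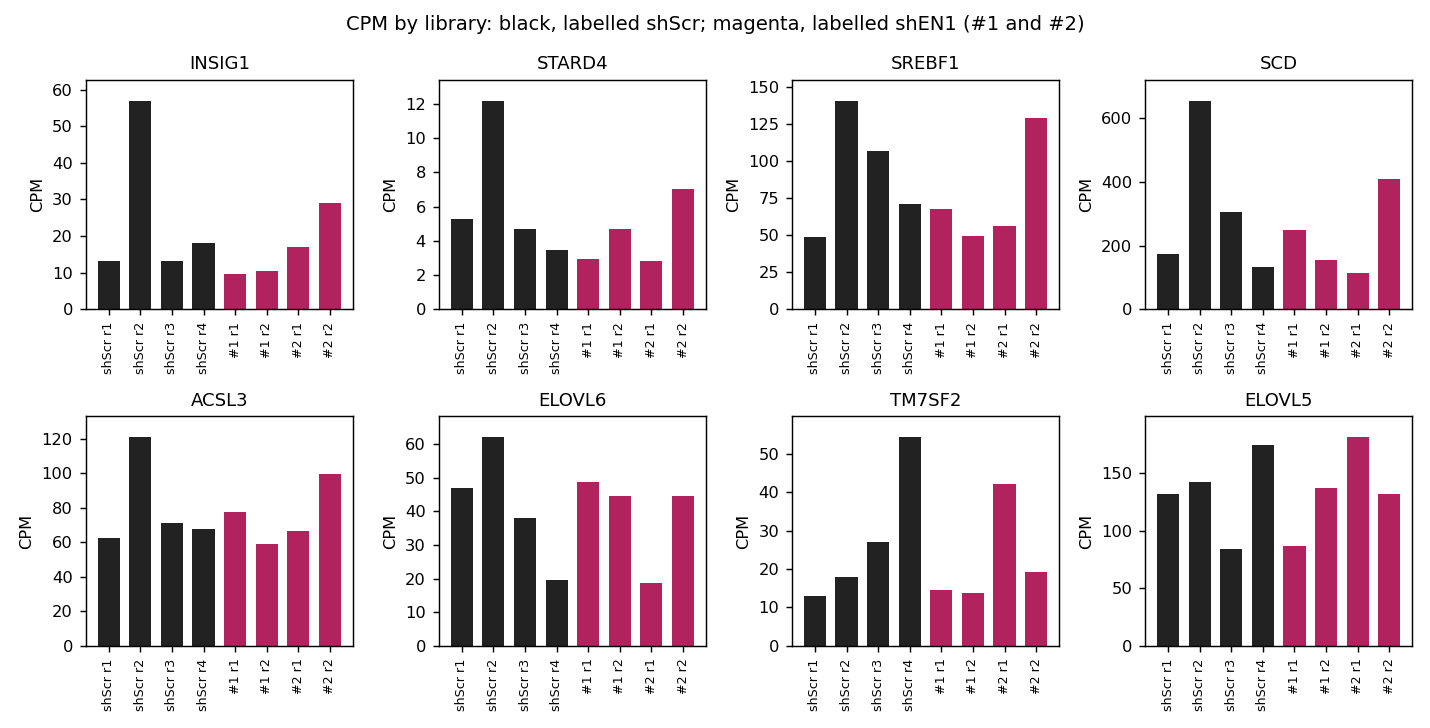
Bars give the CPM of 8 members in each library, starting at 0, with black for the label shScr and magenta for shEN1. INSIG1, STARD4, SREBF1, SCD and ACSL3 are highest in shScr replicate 2 with shEN1 #2 replicate 2 second, whereas ELOVL6 is lowest, and TM7SF2 and ELOVL5 highest, in shScr replicate 4 and shEN1 #2 replicate 1.

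The sterol arm runs from acetyl-CoA through mevalonate and squalene to cholesterol. *STARD4*, which carries cholesterol between membranes, had its widest ratio of the highest to the lowest library (4.32), with 5.30, 12.2, 4.68 and 3.44 CPM under shScr, 2.91 and 4.68 CPM under shEN1 #1, and 2.82 and 7.01 CPM under shEN1 #2. As for *INSIG1*, the high libraries were shScr replicate 2 and shEN1 #2 replicate 2, and the others of both labels overlapped. These values rest on 104 to 452 counts per library.

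In the mevalonate steps, *HMGCS1*, which makes HMG-CoA, had 35.9, 51.3, 28 and 32.7 CPM under shScr, 30.8 and 31 CPM under shEN1 #1, and 33.0 and 33.4 CPM under shEN1 #2. The 4 libraries labelled shEN1 lay within 30.8 and 33.4 CPM, inside the wider shScr range (log2 fold change -0.21, standard error 0.18, and -0.0070 without shScr replicate 2). The enzyme before it, *ACAT2*, ranged from 28.8 to 39.9 CPM under shScr and from 26.7 to 38.2 CPM under shEN1 (means 35.6 ± 4.94 and 30.8 ± 5.21 CPM, SD, n = 4). Of the kinases of mevalonate, *MVK* had a mean of 15.4 CPM (11.6 to 19.6) and *PMVK* of 35.1 CPM (25.6 to 45.6), and *MVD*, whose values under shEN1 are given above, had 34.4, 35.7, 31.8 and 39.3 CPM under shScr. *IDI1*, the isomerase of the isoprenoid unit, had a mean of 31.3 CPM (25.5 to 45.6) and *FDPS*, which builds farnesyl diphosphate, of 116 CPM (91.4 to 135). None of these 6 genes had labels that did not overlap.

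Of the squalene steps, *FDFT1*, squalene synthase, had a mean of 87.2 CPM (73.2 to 109), *SQLE*, squalene epoxidase, of 43.5 CPM (35.8 to 51.4) and *LSS*, which closes the ring to lanosterol, of 48.5 CPM (37.5 to 59.0). *FDFT1* and *SQLE* were highest in shScr replicate 2 and lowest in shScr replicate 3, so that 2 libraries of the same label set their range.

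After lanosterol, *CYP51A1*, the lanosterol demethylase, had a mean of 58.8 CPM (43.0 to 78.1). *MSMO1*, a sterol methyl oxidase, had 38.5, 53.3, 27.7 and 35.6 CPM under shScr, 34 and 34.6 CPM under shEN1 #1, and 38.5 and 42.8 CPM under shEN1 #2. *HSD17B7*, a sterol keto reductase, had 9.10, 13.2, 5.54 and 9.29 CPM under shScr, 7.65 and 6.18 CPM under shEN1 #1, and 6.78 and 11.1 CPM under shEN1 #2. All 3 shared the order of *STARD4* at the top and had their lowest value in shScr replicate 3. Exons of *CYP51A1* share 74.1% of their bases with other annotated genes, on both strands. The share was 37.7% for *HMGCS1*, 36.4% for *EBP* (all on its own strand), 22.2% for *ACAT2*, 18.6% for *FDPS* and 15% for *IDI1*. In addition, *CYP51A1*, *HSD17B7*, *IDI1* and *FDPS* have named pseudogenes, so the counts of all these genes are uncertain.

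*TM7SF2*, a sterol reductase of the endoplasmic reticulum and nuclear envelope, went another way. It had 13.0, 18, 27.1 and 54.4 CPM under shScr, 14.5 and 13.8 CPM under shEN1 #1, and 42.1 and 19.3 CPM under shEN1 #2. Its 2 highest values were in the libraries that stood apart over all genes, and the highest library was 4.18 times the lowest. The remaining sterol genes varied less. *NSDHL*, a sterol dehydrogenase, had a mean of 41.4 CPM (34.8 to 45.4), *EBP*, a sterol isomerase, of 75.9 CPM (56.5 to 88.5), *SC5D*, a sterol desaturase, of 41.6 CPM (34.4 to 55.2) and *DHCR7*, a reductase at the end of the pathway, of 100 CPM (83.4 to 128).

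In the fatty acid arm, *SCD*, the desaturase that makes oleate, had the widest ratio. It had 172, 656, 305 and 131 CPM under shScr, 250 and 153 CPM under shEN1 #1, and 114 and 408 CPM under shEN1 #2. Its highest library was 5.73 times its lowest, the 2 highest were again shScr replicate 2 and shEN1 #2 replicate 2, and the 2 lowest were shEN1 #2 replicate 1 and shScr replicate 4. *SCD* lies at chr10:102106990-102124583 on GRCh37 and has a named pseudogene.

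*ACSL3*, which activates long-chain fatty acids, had 62.6, 121, 71.5 and 67.6 CPM under shScr, 77.6 and 58.9 CPM under shEN1 #1, and 66.9 and 99.9 CPM under shEN1 #2, with the same 2 libraries on top. *FASN*, fatty acid synthase, had 371, 466, 511 and 431 CPM under shScr, 301 and 500 CPM under shEN1 #1, and 389 and 627 CPM under shEN1 #2. It was thus highest in shEN1 #2 replicate 2 and lowest in shEN1 #1 replicate 1, both labelled shEN1.

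The elongases followed the pair of libraries that stood apart, in opposite directions. *ELOVL6*, which extends palmitate, had 47.1, 62.1, 38.1 and 19.7 CPM under shScr, 48.9 and 44.5 CPM under shEN1 #1, and 18.8 and 44.6 CPM under shEN1 #2. *ELOVL5*, which extends polyunsaturated fatty acids, had 132, 142, 84.4 and 174 CPM under shScr, 86.8 and 137 CPM under shEN1 #1, and 181 and 132 CPM under shEN1 #2. The first was lowest and the second highest in shScr replicate 4 and shEN1 #2 replicate 1.

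Within the fatty acid arm the acetyl-CoA suppliers had the smallest ratios of the highest to the lowest library. *ACLY*, which splits citrate, had a mean of 253 CPM (244 to 272), and its highest library was 1.11 times its lowest, the smallest ratio among members. *ACSS2*, which activates acetate, had a mean of 35.4 CPM (29.5 to 40.2) and a ratio of 1.37. *ACACA*, which makes malonyl-CoA, had a mean of 145 CPM (109 to 189). The desaturases of polyunsaturated fatty acids, *FADS1* and *FADS2*, had means of 93.4 CPM (72.6 to 116) and 20.2 CPM (13.4 to 25.7).

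Set side by side, the arms were highest in the same 2 libraries. The level of an arm is here the mean over its genes of the log2 CPM minus each gene's own mean. In shScr replicate 2 it was 0.314 for the sterol and 0.410 for the fatty acid arm, and in shEN1 #2 replicate 2 it was 0.186 and 0.241. All tested genes averaged -0.012 and 0.001 in these libraries. In the other 6 libraries the sterol arm lay between -0.221 and 0.039 and the fatty acid arm between -0.185 and -0.053. The sterol arm exceeded the fatty acid arm most in shScr replicate 4 (by 0.199) and shEN1 #2 replicate 1 (by 0.107). It also did so in shScr replicate 1 (by 0.042) and lay below it in the other 5. In shScr replicate 4 and shEN1 #2 replicate 1, high *TM7SF2* and low *SCD*, *ELOVL6* and *ACACA* were among the values that widened this gap. High *ELOVL5* and low *FDPS*, *EBP* and *SC5D* were among those that narrowed it. *TM7SF2*, *SCD* and *ELOVL6* were left out and the others were kept, a one-sided choice made after their values were seen. It lowers the gap in these libraries by construction. The difference over the remaining 18 sterol and 8 fatty acid genes was then -0.049 in shScr replicate 4 and -0.154 in shEN1 #2 replicate 1. Both arms stayed highest in shScr replicate 2 (0.348 and 0.234) and shEN1 #2 replicate 2 (0.207 and 0.168). By label, the sterol arm averaged 0.055 ± 0.186 (SD, n = 4) under shScr and -0.055 ± 0.172 under shEN1, and the fatty acid arm 0.033 ± 0.256 and -0.033 ± 0.190. The difference between arms averaged 0.022 ± 0.132 under shScr and -0.022 ± 0.088 under shEN1, so for each the labels differed by less than the spread between libraries. The part that depth, batch or culture had in these library levels was not tested. The highest library total was that of shScr replicate 2 and the lowest that of shEN1 #2 replicate 2.

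**Figure D4:**
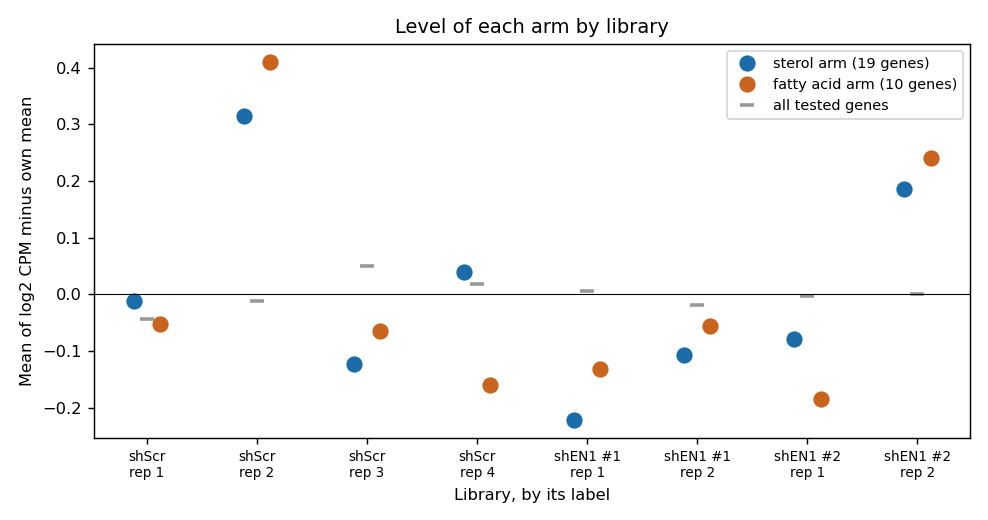
Points give, for each library, the mean over the 19 sterol genes (blue) and the 10 fatty acid genes (orange) of log2 CPM minus each gene's own mean, and grey dashes the same over all 14333 tested genes. Both arms are highest in shScr replicate 2 (0.314 and 0.410) and shEN1 #2 replicate 2 (0.186 and 0.241).

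In spread, the median ratio of the highest to the lowest library was 1.80 over the 34 members, 2.90 over the regulators, 1.69 over the sterol arm and 1.99 over the fatty acid arm. It was 1.68 over all tested genes and 1.54 over the 10665 of them with a mean of 5 CPM or more, which every member had. The ratio exceeded 2 in 80.0% of the regulators, 50% of the fatty acid arm and 15.8% of the sterol arm. It did so in 35.3% of all members, close to 35.8% of all tested genes and above 18.2% of those with a mean of 5 CPM or more.

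Levels were compared between genes as CPM per kilobase of the MANE Select transcript. *FDPS* was highest with 81.8 CPM per kilobase, followed by *EBP* (67.5), *ACLY* (59.0), *FASN* (53.1) and *SCD* (52.1, from 21.8 to 125 over the libraries). *STARD4* was lowest with 1.16 CPM per kilobase. Along this order each gene's range overlapped that of the next gene, apart from *MVK* (4.08 to 6.91) and *STARD4* (0.609 to 2.63). The median was 17.1 CPM per kilobase in the sterol arm, 18 in the fatty acid arm and 13.1 among the regulators, against 8.33 over 12511 tested genes with such a length.

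**Figure D5:**
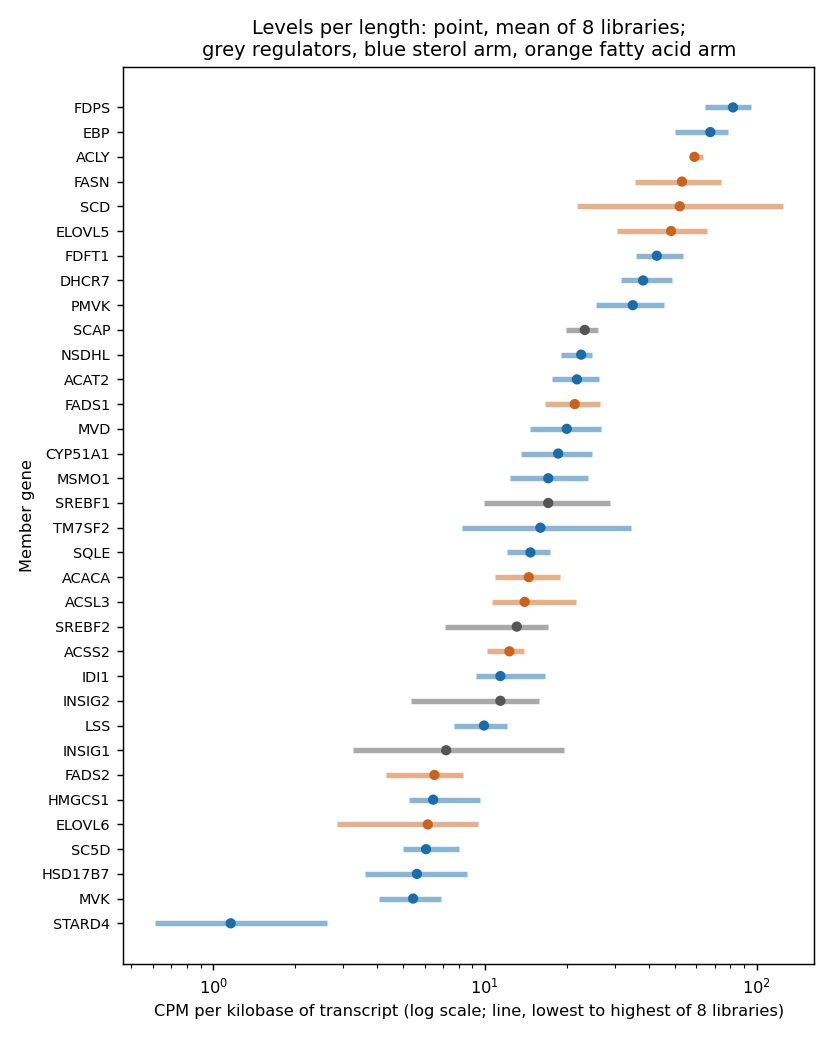
Points give the mean CPM per kilobase of transcript over 8 libraries on a log scale, lines the lowest to the highest library, and colour the group of genes. The order runs from FDPS at 81.8 to STARD4 at 1.16, and the range of STARD4 alone does not meet that of its neighbour.

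Genes around the members were listed by role. Of 12 genes that process or degrade SREBPs and their partners, 11 were tested, with 5 higher and 6 lower between labels. The most variable were *ERLIN2* (53.5 to 88.1 CPM), which helps degrade INSIG-bound proteins, and the SREBP protease *MBTPS2* (29.1 to 40.1 CPM). Of 12 genes of the isoprenoid branch, which leaves the sterol arm at farnesyl diphosphate, 3 were higher and 9 lower. *RABGGTA* ranged from 20 to 36.1 CPM and *GGPS1*, which makes geranylgeranyl diphosphate, from 19.6 to 34.7 CPM. Of 12 genes of sterol efflux and storage, 5 were higher and 7 lower. The exporter *ABCG1* ranged from 1.15 to 11.4 CPM and *NR1H3*, the sterol-sensing receptor LXR alpha, from 10.8 to 27.3 CPM, both highest in shScr replicate 3. That library was the lowest in 7 of the 19 sterol genes (36.8%, against 13.6% of all tested genes), and a link between these was not tested. Of 19 other genes of fatty acid synthesis, 6 were higher and 13 lower. *ACACB*, the mitochondrial acetyl-CoA carboxylase, ranged from 4.61 to 19.1 CPM, and *ACSL5*, which activates fatty acids, from 199 to 576 CPM, lowest in the 2 libraries that stood apart. In each of these 4 lists 0 genes passed edgeR's test or had an unadjusted p below 0.05 between labels, as for 0% and 0.307% of all tested genes.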

How the data were processed

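Poly(A) RNA of 8 SUIT2 libraries was sequenced in pairs. The deposited values are unnormalized read counts of each gene, whole numbers that the authors made with HISAT2 and featureCounts (versions not given in the sources used here). The processing notes of the samples give the build as mm9, while the methods give hg19 for human samples. The Entrez numbers are those of human genes. The annotation and strand setting are not given in the sources used here. Of 25702 identifiers, 23696 were matched to symbols through a RefSeq table; the rest held at most 0.257% of a library's counts. No libraries were identical. Positions and MANE Select lengths came from GENCODE's annotation lifted to GRCh37 (hg19), promoters from RefSeq on GRCh38.p14.

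Genes were filtered with filterByExpr (minimum count 10), scaled with TMM factors (0.962 to 1.07) and tested with edgeR 4.0.16 (glmQLFit, robust) in R 4.3.3 with Benjamini-Hochberg adjustment over all genes at 0.05. Log2 CPM used a prior count of 2. Alternatives were DESeq2 1.42.0, limma-voom (limma 3.58.1), other scalings and filters, a replicate block and left-out libraries. The test was tried on simulated counts. Groups came from the titles, where the first number of a shEN1 title is the construct. The members, gene lists and marker lists were chosen with earlier results of these data known, and the libraries compared by order were picked after their values were seen. Named were *EN1*, all members (every library for the 5 regulators, the 6 sterol and 5 fatty acid genes with the largest ratio of highest to lowest library), called genes, and in each other list the 2 genes of largest ratio with a mean of 5 CPM or more. The murine organoids named in the series' design were not analysed here.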

Additional observations from a re-analysis of the deposited data

Results flagged for a closer look

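For 6 of the 70 groups of 4 libraries tested (34 members and *EN1* under each label), the gap between 1 library and its nearest neighbour exceeded Dixon's limit as a share of the group's whole range, where chance gives about 3.5. Under the label shScr, replicate 2 stood high for *INSIG1* (57.0 CPM, next 18.1; gap 0.887 of the range) and for *ACSL3* (121 CPM, next 71.5; gap 0.847), and replicate 1 stood low for *ACSS2* (29.5 CPM, next 37.7; gap 0.926). Under the label shEN1, replicate 1 of shEN1 #1 stood low for *SCAP* (84.6 CPM, next 103; gap 0.835) and for *SQLE* (38.3 CPM, next 44; gap 0.885). Replicate 1 of shEN1 #2 stood low for *ELOVL6* (18.8 CPM, next 44.5; gap 0.855), a gene that was also low in shScr replicate 4 (19.7 CPM).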

How the results depend on the processing

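The count of 0 called members was the same under every normalization, filter, test and left-out library tried, in all 4 comparisons, with 0 members called. Leaving out single libraries moved the fitted differences between labels across 0 for 26 of the 34 members. Among the regulators these ranges were *SREBF2* (-0.21 to 0.16), *SCAP* (-0.032 to 0.083), *INSIG1* (-1.04 to 0.16) and *INSIG2* (-0.21 to 0.23). In the sterol arm they were *PMVK* (-0.29 to 0.0007), *MVD* (-0.11 to 0.18), *IDI1* (-0.26 to 0.047), *FDPS* (-0.10 to 0.078), *FDFT1* (-0.17 to 0.020), *SQLE* (-0.12 to 0.045), *LSS* (-0.085 to 0.13), *CYP51A1* (-0.059 to 0.24), *TM7SF2* (-0.83 to 0.21), *MSMO1* (-0.18 to 0.14), *NSDHL* (-0.092 to 0.033), *EBP* (-0.17 to 0.036), *SC5D* (-0.19 to 0.047) and *DHCR7* (-0.25 to 0.013). In the fatty acid arm they were *ACACA* (-0.17 to 0.13), *FASN* (-0.16 to 0.18), *SCD* (-0.88 to 0.19), *FADS1* (-0.19 to 0.029), *ELOVL5* (-0.17 to 0.17), *ELOVL6* (-0.32 to 0.17), *ACSS2* (-0.13 to 0.025) and *ACSL3* (-0.25 to 0.17). The other 8 kept their sign, over *SREBF1* (-0.67 to -0.0039), *STARD4* (-0.88 to -0.040), *ACAT2* (-0.33 to -0.15), *HMGCS1* (-0.32 to -0.0070), *MVK* (-0.23 to -0.026), *HSD17B7* (-0.43 to -0.011), *ACLY* (0.017 to 0.069) and *FADS2* (-0.31 to -0.0059). The value of *EN1* was 0.057 to 0.57 without single libraries and 0.040 with limma-voom. The library whose absence changed most signs was that labelled shScr replicate 2 (15 members). Other normalizations and filters changed 0 signs. Limma-voom changed those of *FASN* (-0.012) and *LSS* (-0.0026). Leaving out shScr replicate 4 and shEN1 #2 replicate 1 changed those of *ELOVL5* (-0.013) and *INSIG2* (-0.055). Leaving out shScr replicate 3 and shEN1 #1 replicate 1 changed those of *ACACA* (0.077), *FDPS* (0.0080), *INSIG2* (-0.12) and *NSDHL* (0.031). With all 4 of these left out, the signs of *ACACA* (0.074), *CYP51A1* (-0.075), *DHCR7* (0.026), *EBP* (0.014), *ELOVL5* (-0.027), *FDPS* (0.026), *INSIG2* (-0.26), *NSDHL* (0.094), *PMVK* (0.14) and *TM7SF2* (0.088) changed. In each case the cause was not tested.

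A fit with the replicate number as a block could use 6 libraries. It gave *ACSS2* (0.046), *CYP51A1* (-0.14), *ELOVL5* (-0.029), *INSIG2* (-0.38) and *TM7SF2* (0.45), medians of -0.15 in the sterol and -0.16 in the fatty acid arm, and 0 members called. Deviations from the label mean correlated between -0.381 and 0.319 for same-numbered libraries and between -0.438 and 0.79 for differently numbered ones. For shScr replicate 2 the value was 0.187 with shEN1 #1 replicate 2 and 0.319 with shEN1 #2 replicate 2. The highest value, 0.79, came from the 2 libraries that stood apart, so these correlations cannot decide whether the numbers pair libraries. The block called 1 gene that is no member, as did the fits without shScr replicate 4, without shScr replicate 4 and shEN1 #2 replicate 1, and without both left-out pairs. In the 3-group fit, leaving out a shEN1 library leaves that construct with 1 library, which is then assumed to vary like the others.

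The counts of high libraries, with alternatives chosen after seeing the data, were 17 to 20 of 34 for shScr replicate 2, 8 to 10 for shEN1 #2 replicate 2 and 11 to 14 for both on top. With 4 libraries a label and a median standard error of 0.18 among members, small differences between labels could not be detected.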

Other observations

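Genes that use or store fatty acids were also listed. Of 12 genes of glycerolipid synthesis and lipid droplets, 7 had a higher and 5 a lower fitted level under shEN1 than under shScr. *LPIN1*, a phosphatidate phosphatase, had 33.7, 51.8, 27.6 and 26.3 CPM under shScr, 37.2 and 34.7 CPM under shEN1 #1, and 26.3 and 42.9 CPM under shEN1 #2, with the 2 libraries on top that were also highest for *INSIG1* and *SCD*. *PLIN2*, which coats lipid droplets, had 60.9, 29.9, 35.2 and 22.7 CPM under shScr, 50.6 and 53.7 CPM under shEN1 #1, and 22.2 and 27.5 CPM under shEN1 #2, and was highest in shScr replicate 1.

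Of 17 genes of fatty acid oxidation, 16 were tested, with 1 higher and 15 lower under shEN1 (median log2 fold change -0.075, from -0.14 to 0.079). Over all tested genes 7006 were higher and 7327 lower (median -0.0028). The 1 higher oxidation gene was *CPT1A*, which brings fatty acids into mitochondria (196 to 278 CPM under shScr and 215 to 317 CPM under shEN1), named after its value was seen. *PPARA*, a fatty acid receptor, ranged from 10 to 21.1 CPM and *ETFB*, an electron carrier, from 42.6 to 90 CPM. By edgeR, 0 genes of either list had an adjusted or an unadjusted p below 0.05.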
